A study of Mus musculus with 6 samples.

Results

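*Nnt* and 5 of its neighbours on distal mouse chromosome 13 were followed in hippocampal neurons cultured from *Fmr1* knockout (KO) and wild type (WT) mice. The 6 genes, *Nnt*, *Ccl28*, *Tmem267*, *Paip1*, *Nim1k* and 4833420G17Rik, were chosen by symbol from the 47086 loci of the deposited table. All 6 were found once each, and all 6 were among the 13195 loci tested. They were put together because *Nnt*, *Ccl28* and *Tmem267* had been seen to be lower in the libraries labelled *Fmr1* KO. Their difference between genotypes is therefore given as a description, without a test.

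Total RNA was sequenced from primary hippocampal cultures kept for 14 days in vitro, with 3 libraries of WT and 3 of *Fmr1* KO. Per the study's methods, the cultures came from newborn pups, and both genotypes are labelled C57BL/6. For its mice in general, the study describes male *Fmr1* KO animals with WT littermates, bred from heterozygous females and WT males. For the pups behind these libraries, the sources used here do not state the C57BL/6 substrain, the sex, the litter or whether pups were pooled. The study states in general that several culture batches and litters were used. For biochemical analyses of primary neurons it gives fewer litters than for behaviour, without naming the sequencing there. It calls the sequenced samples triplicates or repeats. It does not tie single libraries to cultures or litters, so the spread between them may be technical. Levels are in FPKM, a fragment count divided by transcript length and by library size, so that it can be compared between genes.

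The transcript of *Fmr1* itself was measured first. Its WT libraries had 19.0, 19.5 and 19.7 FPKM, against 23.1, 21.8 and 18.5 in *Fmr1* KO, a log2 change of 0.12 (SE 0.08; limma, adjusted p = 0.536). The transcript is thus no check of the labels, and all directions given here depend on them. The absolute depth is unknown. FPKM summed to between 1803679 and 2303083 per library, of which the noncoding RNA Bc1 took 73.7 to 80.6%, and the commonest ratio at loci below 0.2 FPKM put WT replicate 1 at 1.1 to 1.34 times the scale of the other libraries. Neuronal markers were present in every library, with all 8 above 1 FPKM on average and sums of 1364 to 1400 FPKM across WT libraries and 1372 to 1458 across *Fmr1* KO libraries. Astrocyte markers were also high, with sums of 1095 to 1277 and 1130 to 1243. The cultures thus held glia, and fewer cells of a type and less RNA per cell cannot be told apart in such bulk samples.

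*Nnt* encodes nicotinamide nucleotide transhydrogenase, a protein of the inner mitochondrial membrane that uses the proton gradient to make NADPH from NADH. This NADPH feeds the glutathione and thioredoxin systems, which remove peroxides in the matrix. *Nnt* is also known as a gene that differs between C57BL/6 substrains. The C57BL/6J substrain carries an in-frame deletion of several exons that leaves no functional protein, while C57BL/6N carries the intact gene. The GRCm38 reference genome was made from C57BL/6J, so its model of *Nnt* lacks those exons and reads from them have no place to map. A level measured on GRCm38 covers only the exons that both forms share.

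The *Nnt* locus lies on the minus strand of chromosome 13 at 119335527 to 119409257 (GRCm38), and GENCODE models of its coding transcripts there have 14 to 17 exons. For *Nnt*, the WT libraries had 10.7, 11.5 and 11.7 FPKM, against 6.80, 7.01 and 6.48 in *Fmr1* KO. All *Fmr1* KO libraries were below all WT libraries, and the gap between the genotypes was wider than the spread within either. The mean was 11.3 ± 0.564 for WT and 6.76 ± 0.267 for *Fmr1* KO (SD of 3 libraries), so the *Fmr1* KO level was 59.8% of WT. On the log2(FPKM + 0.1) scale used for all changes here, which understates changes of weakly expressed genes, the difference was -0.73 with a standard error of 0.066.

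*Ccl28* encodes a chemokine of mucosal epithelia that acts through the receptors CCR10 and CCR3. Its deposited locus spans 119610520 to 119654359, 201 kb beyond the end of *Nnt*. It was the weakest of the 6 genes and the one with the largest difference. Its WT libraries had 2.48, 2.67 and 2.26 FPKM, against 0.621, 0.723 and 0.542 in *Fmr1* KO. The highest *Fmr1* KO library, at 0.723, was far below the lowest WT library, at 2.26. The mean was 2.47 ± 0.204 for WT and 0.628 ± 0.0907 for *Fmr1* KO (SD of 3 libraries), which is 25.4% of WT and a log2 difference of -1.82 (standard error 0.17). Only 19 of the 13195 tested loci had a lower log2 change. However, *Ccl28* reached the minimum of 1 FPKM for testing only through WT, and it was picked on this comparison. Its rank is therefore only a description.

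*Tmem267* encodes a transmembrane protein whose role is little known. Its deposited locus, at 119487257 to 119610459, fills most of the stretch between *Nnt* and *Ccl28*. For *Tmem267*, the WT libraries had 10.5, 9.29 and 9.22 FPKM, against 7.06, 5.39 and 5.10 in *Fmr1* KO. *Fmr1* KO replicate 1 stood above the other two, but still below every WT library. The mean was 9.69 ± 0.746 for WT and 5.85 ± 1.06 for *Fmr1* KO (SD of 3 libraries), or 60.4% of WT, with a log2 difference of -0.73 (standard error 0.12). The ratio of *Nnt* to *Tmem267* was 1.17 ± 0.142 for WT and 1.18 ± 0.186 for *Fmr1* KO (SD of 3 libraries), so both levels were lower in like proportion.

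The sequence of *Tmem267* limits what its level can say. In GENCODE, the coding part of the gene is present in 2 copies on chromosome 13 of GRCm38, each of 714 bases in 2 exons. The exons of 382 and 371 bases at 119492634 and 119495135 were compared with the exons that start at 119606649 and 119609192, about 114 kb further along. They matched base for base, with 0 mismatches. The first 120 coding bases of each copy are given here, with the start codon in capitals, since a read from these bases maps to both places equally well.
Tmem267, chr13:119492635-119492754, plus strand: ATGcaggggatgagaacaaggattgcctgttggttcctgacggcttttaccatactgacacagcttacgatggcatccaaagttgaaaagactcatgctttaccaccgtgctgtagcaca
Tmem267, chr13:119606650-119606769, plus strand: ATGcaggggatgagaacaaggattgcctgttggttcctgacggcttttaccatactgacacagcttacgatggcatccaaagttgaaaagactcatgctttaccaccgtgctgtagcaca
Both copies lie inside the 1 deposited locus, and the sources used here do not state how reads with 2 places were counted. The level of *Tmem267* therefore cannot be divided between the copies.

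Between and beyond these genes lie others whose libraries were not lower in *Fmr1* KO. *Paip1*, at 119428280 to 119460323, starts 19.0 kb after the end of *Nnt* and encodes a protein that binds poly(A)-binding protein and promotes translation. Its WT libraries had 28.3, 26.9 and 27.2 FPKM, against 29.0, 27.3 and 26.8 in *Fmr1* KO. The libraries overlapped fully, with means of 27.5 ± 0.744 and 27.7 ± 1.15 (SD of 3 libraries) and a log2 difference of 0.01 (standard error 0.052). *Nim1k*, which encodes a protein kinase related to AMPK, lies at 119710094 to 119755882, beyond *Ccl28*. Its WT libraries had 5.24, 5.40 and 5.72 FPKM, against 5.31, 4.94 and 5.45 in *Fmr1* KO, a log2 difference of -0.06 (standard error 0.076), and its libraries also overlapped.

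4833420G17Rik, a little-studied coding gene at 119462015 to 119486120, had the opposite direction. Its WT libraries had 14.6, 12.7 and 13.9 FPKM, against 16.6, 16.7 and 16.4 in *Fmr1* KO. Every *Fmr1* KO library lay above every WT library, and the *Fmr1* KO libraries were nearly equal. The means were 13.8 ± 0.956 and 16.6 ± 0.147 (SD of 3 libraries), so *Fmr1* KO had 121% of the WT level, a log2 difference of 0.27 (standard error 0.063). Its 3′ neighbour in the same orientation is *Tmem267*, and the ratio of *Tmem267* to 4833420G17Rik was 0.705 ± 0.0368 for WT and 0.352 ± 0.0630 for *Fmr1* KO (SD of 3 libraries).

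**Figure D1:**
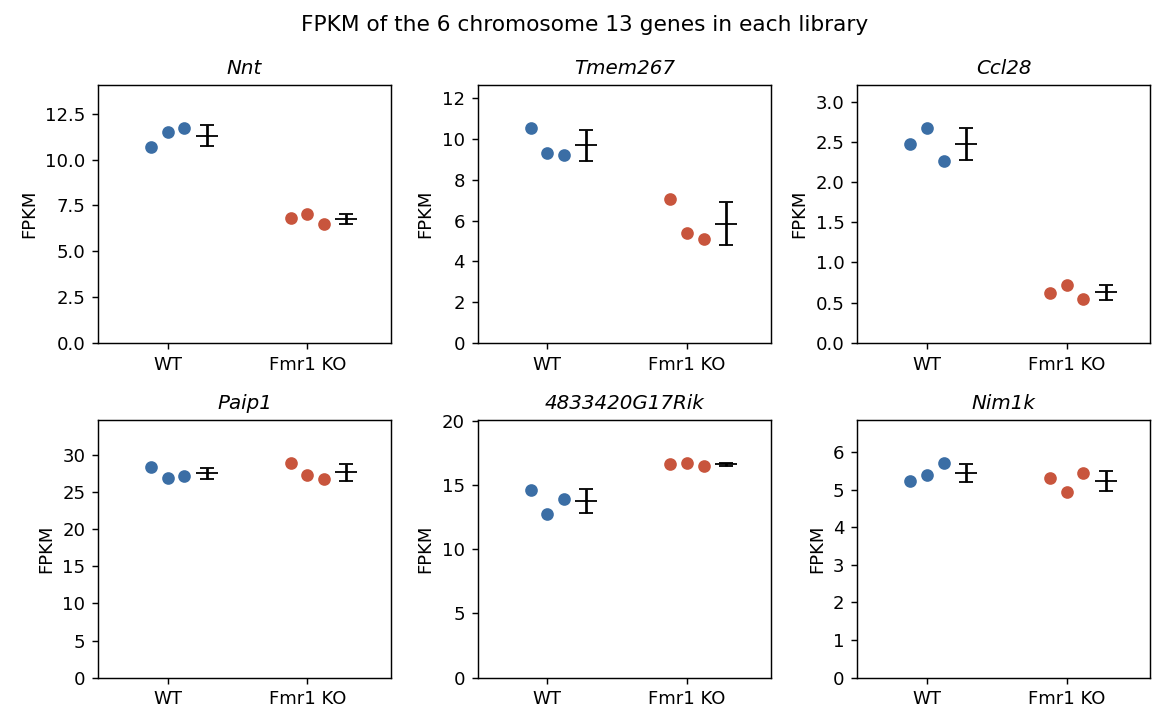
FPKM (vertical axes, from 0) of the 6 genes in each library, with WT in blue and *Fmr1* KO in red; the black mark and bar beside each group are the mean and SD of 3 libraries. *Nnt*, *Tmem267* and *Ccl28* have separated groups with *Fmr1* KO lower, 4833420G17Rik has separated groups with *Fmr1* KO higher, and *Paip1* and *Nim1k* overlap.

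Of the 6 genes, 3 had all *Fmr1* KO libraries below all WT libraries. Over all tested loci this held for 10.3%. In the other direction there was 1 gene, against 10.8% of tested loci. Separated libraries in either direction were seen for 4 of the 6, against 21.1% of tested loci. These counts only describe the 6 genes, which were picked on this comparison. Over all 13195 loci, 23 were lower (0.174%) and 12 were higher (0.0909%) when limma p-values were adjusted by Benjamini-Hochberg at 0.05, and the median log2 change was 0.005. *Nnt* and *Tmem267* ranked 78 and 79 from the lowest change, and 4833420G17Rik ranked 485 from the highest.

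**Figure D2:**
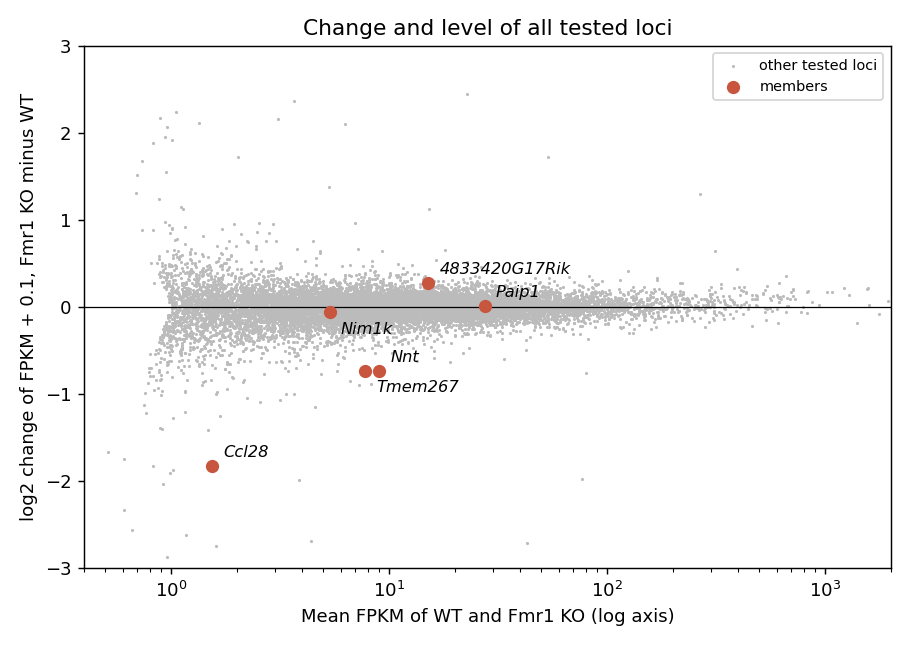
Each grey point is a tested locus, with its mean FPKM of both genotypes on a log axis and its log2 change of FPKM + 0.1 (*Fmr1* KO minus WT) on the vertical axis; red points are the 6 genes, and 30 loci fall outside the axes. *Ccl28* at -1.82, *Nnt* and *Tmem267* at -0.73 lie below most loci of like level, while *Paip1* at 0.01 and *Nim1k* at -0.06 lie within the band.

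The order of the levels was the same in both genotypes. It ran from *Paip1* through 4833420G17Rik, *Nnt*, *Tmem267* and *Nim1k* to *Ccl28*. FPKM is meant to be compared between genes, but this is limited for *Nnt*, measured only on exons present in GRCm38. It is also limited for *Tmem267*, with its repeated coding copies. In WT, each gene's lowest library was above the highest library of the next gene. This gap was narrow between *Nnt*, lowest at 10.7, and *Tmem267*, highest at 10.5. In *Fmr1* KO, *Tmem267* at 5.10 to 7.06 overlapped both *Nnt* at 6.48 to 7.01 and *Nim1k* at 4.94 to 5.45, so these neighbours in the order did not differ beyond their spread. The SD between libraries was 2.70 to 8.24% of the mean in WT. In *Fmr1* KO it ranged from 0.888% for 4833420G17Rik to 18.0% for *Tmem267*.

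The promoters are shown for *Ccl28* and *Tmem267*, which were lower together, and for 4833420G17Rik, which was higher. Each covers 250 bases before to 50 bases after an annotated start (RefSeq, GRCm38.p6, plus strand of chromosome 13). RefSeq starts matched 5 of the 6 genes, with 7 promoters; *Nnt* had no entry. The letters searched on both strands were TATAAA for the TATA box, CCAAT for the CCAAT box and GGGCGG for the GC box. Also searched were CACGTG as a form of the E-box, GCATGCG for the NRF1-type motif and CCGGAAG for the ETS-type motif. Other forms of the E-box were not searched. Capitals mark each match on either strand.
Ccl28, chr13:119623569-119623868: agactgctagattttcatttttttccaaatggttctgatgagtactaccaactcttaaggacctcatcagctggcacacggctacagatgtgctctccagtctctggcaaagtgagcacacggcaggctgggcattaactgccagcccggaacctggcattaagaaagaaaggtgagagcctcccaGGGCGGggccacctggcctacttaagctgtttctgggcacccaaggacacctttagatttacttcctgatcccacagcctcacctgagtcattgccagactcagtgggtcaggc
Tmem267, first start, chr13:119487836-119488135: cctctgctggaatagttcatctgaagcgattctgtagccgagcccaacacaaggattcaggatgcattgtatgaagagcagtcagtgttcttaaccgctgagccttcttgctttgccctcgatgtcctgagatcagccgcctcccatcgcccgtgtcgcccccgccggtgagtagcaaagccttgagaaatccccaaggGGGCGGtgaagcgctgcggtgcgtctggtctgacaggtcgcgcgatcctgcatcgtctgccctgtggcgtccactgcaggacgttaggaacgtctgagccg
Tmem267, second start, chr13:119488223-119488522: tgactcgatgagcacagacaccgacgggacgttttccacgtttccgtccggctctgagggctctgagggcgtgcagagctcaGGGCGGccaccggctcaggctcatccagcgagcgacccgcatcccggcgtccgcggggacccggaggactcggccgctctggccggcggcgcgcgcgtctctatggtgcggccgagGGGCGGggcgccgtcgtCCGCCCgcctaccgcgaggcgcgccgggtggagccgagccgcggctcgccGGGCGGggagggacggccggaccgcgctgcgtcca
4833420G17Rik, chr13:119462509-119462808: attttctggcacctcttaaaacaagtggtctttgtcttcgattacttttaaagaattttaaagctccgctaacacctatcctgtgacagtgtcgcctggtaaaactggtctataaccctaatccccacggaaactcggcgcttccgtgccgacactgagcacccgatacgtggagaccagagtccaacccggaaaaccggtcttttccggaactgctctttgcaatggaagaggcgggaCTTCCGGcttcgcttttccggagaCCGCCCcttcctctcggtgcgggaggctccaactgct
The GC box GGGCGG occurred in all 4 of these promoters, 4 times at the second start of *Tmem267* and 1 time in each of the others. Both promoters of *Paip1* held it as well, and it was found in 35.7% of the 32851 RefSeq promoters of this length. The ETS-type motif CCGGAAG, found in 8.86% of promoters, was present only in that of 4833420G17Rik among the 7. The TATA box (in 13.6% of all promoters), the E-box form CACGTG (7.15%) and the NRF1-type motif (3.58%) were in none of the 7. The CCAAT box, in 37.4% of all promoters, was in that of *Nim1k* alone. The GC content was 52.3% for *Ccl28* and 4833420G17Rik and 58.7% and 76.0% for *Tmem267*, against a median of 52.7% over all promoters. A match is only a string of letters, and the 1 searched motif that *Ccl28* and *Tmem267* shared was also present in 4833420G17Rik.

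Overlapping transcripts add a further limit. Exons of *Tmem267* overlap 3110070M22Rik, a gene on the other strand, by 162 bases, or 3.0% of the exonic bases of *Tmem267*. Another 181 bases overlap the noncoding Gm48265, and 524 bases of 4833420G17Rik (10.7%) overlap Gm9752, also on the opposite strand. The sources used here do not state the library type, and without strand reads from these bases cannot be assigned to a gene. 3110070M22Rik was weak, with 1.01, 0.854 and 0.706 FPKM for WT and 1.30, 1.38 and 1.03 for *Fmr1* KO. Its direction was opposite to that of *Tmem267*, with a log2 change of 0.48 (SE 0.21; limma, adjusted p = 0.339). The 50-base stretches of GENCODE transcripts were also looked up in transcripts of other genes, on either strand. Such matches were found for 0.2% of those in *Nnt* and *Ccl28*, 4.4% in *Tmem267* and 8.8% in 4833420G17Rik. None were found for *Paip1* and *Nim1k*. Overlaps with genes on the other strand count here too. For *Tmem267* the other genes were 3110070M22Rik, Gm42432 and Gm48265, so its share in part restates the overlaps above. The annotated *Ccl28* starts at 119623819, while its deposited locus starts further upstream, at 119610520. That upstream stretch takes in the annotated end of *Tmem267*, at 119611059, and part of Gm48265, which spans 119609765 to 119613472. The sources used here do not state whether reads from there were counted for *Ccl28*.

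Around the 6 genes, no other tested locus changed at the adjusted threshold. Within 1 Mb of *Nnt* the table holds 39 other loci. Of these, 26 were listed at 0 in every library and 5 were tested, with 0 at an adjusted p below 0.05 in limma, against 0.265% of all loci. At an unadjusted p below 0.05 there was 1, the predicted gene Gm31544, against 14.8% of all loci, or 7.77% lower and 6.99% higher. Its WT libraries had 1.77, 1.78 and 2.38 FPKM, against 1.57, 0.767 and 1.31 in *Fmr1* KO (-0.70 on the log2 scale, SE 0.25; limma, adjusted p = 0.259).

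*Hmgcs1*, which encodes the HMG-CoA synthase of cholesterol synthesis, lies between *Ccl28* and *Nim1k* and is not one of the 6. It was the most abundant gene of the stretch, with 351 ± 12.4 FPKM for WT and 329 ± 10.5 for *Fmr1* KO (SD of 3 libraries), or -0.09 on the log2 scale (SE 0.048; limma, adjusted p = 0.422). *Zfp131*, a zinc finger gene beyond *Nim1k*, had 0.01 (SE 0.060; limma, adjusted p = 0.972). *Mrps30*, a mitochondrial ribosomal protein gene on the other side of *Nnt*, had -0.10 (standard error 0.065, adjusted p = 0.523 in limma). The differences thus varied in size along the chromosome and were not all in the same direction. In order of start, the 6 genes and *Hmgcs1* had log2 changes of -0.73 for *Nnt*, 0.01 for *Paip1*, 0.27 for 4833420G17Rik, -0.73 for *Tmem267*, -1.82 for *Ccl28*, -0.09 for *Hmgcs1* and -0.06 for *Nim1k*. Within 10 Mb, 32 other loci were tested, with a median of 0.03, a range of -0.70 to 0.48 and 0 at an adjusted p below 0.05. At an unadjusted p below 0.05, that window had 4 loci up and 4 down, against 6.99% up and 7.77% down over all tested loci.

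**Figure D3:**
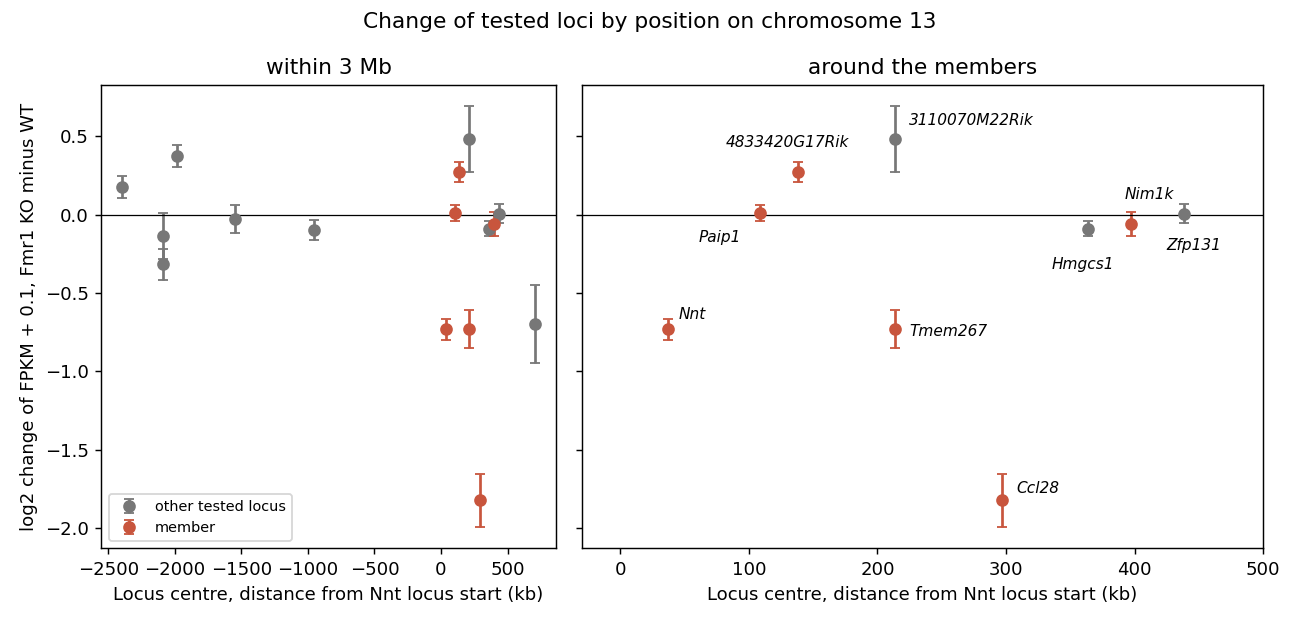
log2 change of FPKM + 0.1 (*Fmr1* KO minus WT, vertical axes) of tested loci against the distance of their centre from the start of the *Nnt* locus in kb, within 3 Mb on the left and around the 6 genes on the right; bars are standard errors from limma. The 6 genes are red and other loci grey: *Nnt*, *Tmem267* and *Ccl28* are low, at -0.73, -0.73 and -1.82, while *Paip1* between them and *Hmgcs1*, *Nim1k* and *Zfp131* beyond them lie near 0.

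The mitochondrial genes that supply NADPH or spend it on peroxides had small differences in both directions. Of 16 listed genes 15 were tested, 6 with a positive and 9 with a negative log2 change, with a median of -0.016 and a range of -0.11 to 0.15. At an adjusted p below 0.05 in limma there were 0, against 0.265% of all tested loci, and at an unadjusted p below 0.05 also 0, against 14.8%. *Idh2*, an isocitrate dehydrogenase that makes NADPH in mitochondria, had 33.1 ± 1.17 FPKM for WT and 34.0 ± 0.987 for *Fmr1* KO (SD of 3 libraries). *Prdx3*, a mitochondrial peroxiredoxin, had the lowest change, with 48.2 ± 2.34 and 44.6 ± 2.55 (SD of 3 libraries; log2 change -0.11, adjusted p = 0.414 in limma), followed by *Gsr*, the glutathione reductase, at -0.11. The highest were *Nadk2*, the mitochondrial NAD kinase, at 0.15 (adjusted p = 0.666 in limma) and *Sod2*, the mitochondrial superoxide dismutase, at 0.10 (adjusted p = 0.495 in limma). *Txnrd2* was listed at 0 in every library, which need not mean that the transcript was absent.

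The other chemokine ligand and receptor genes were mostly too low to test. Of 18 listed ligands and receptors 7 were tested, with a median log2 change of -0.057 and a range of -0.19 to 0.10. None was below an adjusted p of 0.05 in limma, against 0.265% of all tested loci, and 1 was below an unadjusted p of 0.05, against 14.8%. That was *Cx3cl1*, the neuronal ligand of the microglial receptor CX3CR1, with 88.8 ± 2.53 FPKM for WT and 78.0 ± 1.69 for *Fmr1* KO (SD of 3 libraries; log2 change -0.19, adjusted p = 0.130 in limma). *Ackr3*, a scavenger receptor for CXCL12, had -0.11. *Ccl25* at 0.10 and *Cxcl12* at 0.02 had the highest changes. The receptors of CCL28 were scarcely seen, with means of 0.112 (WT) and 0.101 (*Fmr1* KO) FPKM for *Ccr10*, and 0 and 0.00828 for *Ccr3*.

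The genes linked to *Paip1* and *Nim1k* by function had small differences. In the list of poly(A)-binding proteins, their inhibitors and the cap-binding complex, 14 of 14 were tested, with a median log2 change of 0.019 and a range of -0.08 to 0.14. *Pabpc1*, the main cytoplasmic poly(A)-binding protein, was the 1 gene at an unadjusted p below 0.05, with 149 ± 1.18 FPKM in WT and 165 ± 1.67 in *Fmr1* KO (SD of 3 libraries; log2 change 0.14, adjusted p = 0.171 in limma). *Eif4ebp2*, a repressor of the cap-binding protein, had 0.09, while *Eif3g* had -0.08 and *Eif4g2* had -0.04. Of 18 genes of AMPK, its relatives and the upstream kinase complex, 17 were tested, 14 with a positive and 3 with a negative change, with a median of 0.06. In 4 of the 17, all *Fmr1* KO libraries lay above all WT libraries, which held for 10.8% of all tested loci. The reverse was seen in 0, against 10.3%. Changes in this list ranged from -0.10 to 0.15. *Mark4*, at 0.15 (adjusted p = 0.242 in limma), was the only one at an unadjusted p below 0.05. *Melk* had 0.14, *Sik1* had -0.10 and *Nuak1* had -0.07. The single genes at an unadjusted p below 0.05, 1 of 14 and 1 of 17, stand against 14.8% of all tested loci. In neither list was any gene at an adjusted p below 0.05 in limma, against 0.265% of all tested loci.

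The genes known to differ between C57BL/6 substrains or stocks were looked up because *Nnt* is 1 of them. Of 8 listed beside *Nnt*, 4 were tested and all 4 had a negative log2 change, with a median of -0.53 against 0.005 for all tested loci. In 3 of the 4, the *Fmr1* KO libraries lay below all WT libraries, which held for 10.3% of all tested loci. *Gabra2*, a GABA-A receptor subunit gene whose brain transcript is known to be lower in C57BL/6J than in C57BL/6N, had the largest change. It averaged 122 ± 2.90 FPKM for WT and 31.0 ± 0.958 for *Fmr1* KO (SD of 3 libraries; log2 change -1.97, adjusted p = 2.74e-07 in limma). *Fgfbp3*, from a segment whose copy number varies between stocks of C57BL/6J, had 4.62 ± 0.188 and 2.86 ± 0.710 (SD of 3 libraries; -0.70, adjusted p = 0.130 in limma). *Wdfy1*, an endosomal protein gene, had 13.3 ± 0.762 and 10.3 ± 0.152 (SD of 3 libraries; -0.36, adjusted p = 0.0630 in limma). *Cyfip2*, whose known substrain difference changes its protein, had 63.0 ± 4.29 and 61.7 ± 0.173 (SD of 3 libraries; -0.03, adjusted p = 0.865 in limma). *Entpd4*, *Crb1*, *Ide* and *Nlrp12* were below the minimum level for a test, and *Nlrp12* was listed at 0. The other untested genes of this list had higher means in *Fmr1* KO. These were 0.0303 (WT) and 0.0829 (*Fmr1* KO) FPKM for *Entpd4*, 0.0347 and 0.137 for *Crb1*, and 0.212 and 0.322 for *Ide*. Of these, only *Crb1* had no overlap between genotypes, and all were near the floor. The direction of the tested genes therefore does not hold for the whole list. These substrain genes were listed with earlier results for *Nnt* and *Gabra2* known, so they do not support each other. With no substrain given for any library, a difference of substrain and an effect of *Fmr1* cannot be told apart for *Nnt* and its neighbours.

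**Figure D4:**
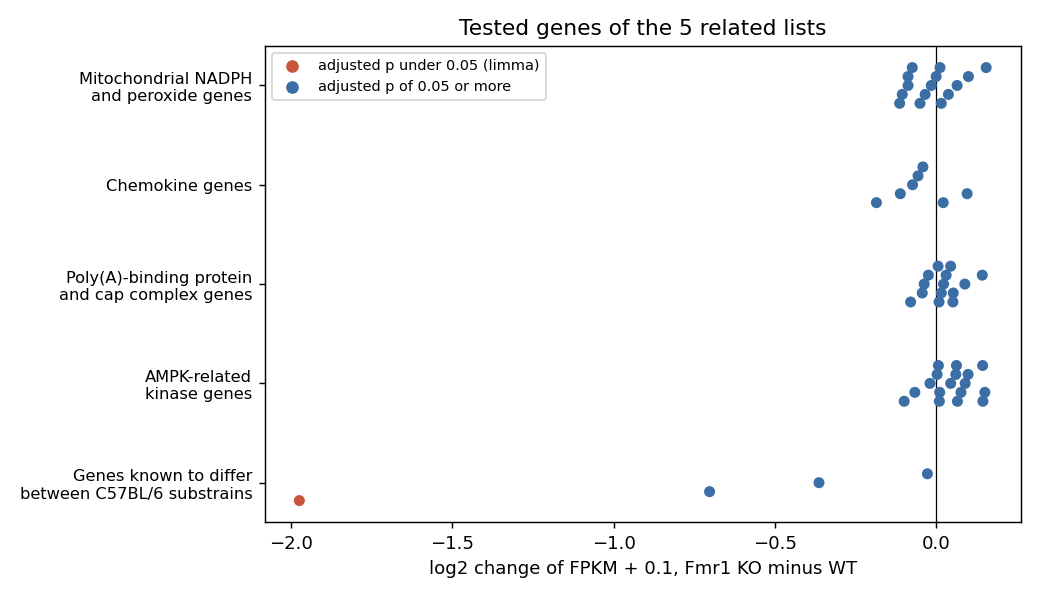
log2 change of FPKM + 0.1 (*Fmr1* KO minus WT, horizontal axis) of the tested genes in 5 lists, 1 point per gene, spread vertically only to separate points; red marks an adjusted p below 0.05 in limma. Points of the first 4 lists lie between -0.19 and 0.15, and the substrain list reaches -1.97 at *Gabra2*.

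Other transcripts also moved with the genotype labels, and their part in the levels of the 6 genes was not tested. Microglial markers, relevant to a chemokine gene, summed to 6.13 to 8.74 FPKM in WT and 1.21 to 3.09 in *Fmr1* KO. Of these 8 genes, only *C1qa*, *C1qb*, *C1qc* and *Lyz2* reached the minimum for testing, each through WT alone, and *Aif1* was listed at 0. Their log2 changes were -2.03, -2.33, -1.83 and -2.87. In each, all *Fmr1* KO libraries lay below all WT libraries, which held for 10.3% of all tested loci. At an adjusted p below 0.05 in limma 1 was lower, against 0.174% of all tested loci. A gene that enters through WT alone is lower in *Fmr1* KO on average by that choice. These counts are therefore only a description, and the shares are no like comparison. Of the untested markers, *Csf1r* and *Tyrobp* overlapped between genotypes, and *Cx3cr1* was lower without overlap, with means of 0.328 (WT) and 0.0844 (*Fmr1* KO) FPKM. Markers of choroid plexus and other epithelium, tissues in which *Ccl28* can be expressed, summed to 0.713 to 1.43 FPKM in WT and 52.7 to 62.8 in *Fmr1* KO. In *Fmr1* KO that sum was almost all *Ttr*, with 56.6, 52.0 and 60.7 FPKM, against 0, 0 and 0.091 for WT. *Folr1* had 1.16, 0.687 and 0.487 FPKM for WT and 1.39, 0.534 and 1.63 for *Fmr1* KO (limma, adjusted p = 0.630). *Krt18*, too low to test, had 0, 0 and 0.0383 FPKM for WT and 0.128, 0.131 and 0.303 for *Fmr1* KO. Its libraries did not overlap, while 10.8% of all tested loci were higher in *Fmr1* KO without overlap. *Krt8*, *Epcam* and *Cdh1* were below 0.3 FPKM in every library and overlapped between genotypes, and *Kl* was listed at 0. The mean of *Epcam* was lower in *Fmr1* KO, at 0.0907 against 0.184 FPKM for WT. Endothelial markers summed to 2.47 to 2.54 and 1.53 to 2.24 FPKM, with *Cldn5* listed at 0, and fibroblast and mural markers to 47.4 to 52.0 and 38.6 to 46.8. Oligodendrocyte lineage markers summed to 346 to 402 FPKM in WT and 396 to 439 in *Fmr1* KO. Apart from *Lyz2* among the microglial and *Ttr* among the epithelial markers, no marker of the 7 lists was below an adjusted p of 0.05 in limma. The Y-linked *Eif2s3y* was higher in *Fmr1* KO, with 21.0 ± 1.42 against 9.53 ± 0.233 FPKM (SD of 3 libraries; adjusted p = 0.000183 in limma), and so was *Ddx3y*, with 8.86 ± 0.176 against 5.55 ± 0.134 (SD of 3 libraries; adjusted p = 0.00374 in limma).

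The tested loci most like *Nnt* across the 6 libraries were *M6pr*, *Txnip* and *Lgi3*, with Pearson's r of 0.997, 0.996 and 0.995. For *Ccl28* they were *Adm*, *Slc14a1* and 2010300C02Rik (0.9969, 0.9962 and 0.996), and for *Tmem267* they were 2610301B20Rik, *Fundc2* and *Scg2* (0.9975, 0.9973 and 0.9923). All 9 were lower in *Fmr1* KO, from -0.88 for *Adm* to -0.19 for *M6pr* and 2610301B20Rik on the log2 scale. Such values mostly restate the split between the genotypes, since 298 loci had an r of at least 0.9 with *Nnt*, 322 with *Ccl28* and 396 with *Tmem267*.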

How the data were processed

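RNA-seq was done on total RNA from hippocampal cultures of WT and *Fmr1* KO mice, with 3 libraries each, grouped by their titles. Per the methods and the processing notes of the submitters, adapters were removed by Fastx Clipper, reads were trimmed by sickle and placed on GRCm38 by TopHat2, and Cufflinks and Cuffdiff gave loci and levels. The authors' deposited values are FPKM per library; their group FPKM, fold changes, p-values and q-values were not used. The sources used here do not state tool versions, annotation, library type or library scaling. Deposited starts count from 0 and are given here plus 1.

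Each locus was tested once with limma 3.58.1 (R 4.3.3) on log2(FPKM + 0.1), with a model of genotype alone, a trended prior variance and p-values adjusted by Benjamini-Hochberg. The 13195 loci tested averaged 1 FPKM or more in WT or *Fmr1* KO. The code was tested on simulated data. FPKM give no counts, so depth is unknown and the spread of 3 libraries sets the precision. An exact permutation test of 3 against 3 cannot go below 0.1, so none was run. The alternatives were other pseudocounts, other FPKM minimums, median centring, no trend, each library left out and a replicate block.

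The 6 genes and the lists were chosen with earlier results of these data known. Genes named are the 6, every tested locus within 1 Mb of *Nnt*, the substrain list, the extremes of each other list (2 up, 2 down) and the 3 loci most like *Nnt*, *Ccl28* and *Tmem267*. *Idh2*, *Txnrd2*, *Ccr10* and *Ccr3* and the sequence checks were added after values were seen. Sequences are from RefSeq and GENCODE M21 on GRCm38.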

Additional observations from a re-analysis of the deposited data

How the results depend on the processing

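The log2 change of *Nnt* stayed between -0.77 and -0.66 over 13 alternatives, and only the pseudocount of 1 moved it beyond the spread between libraries, to -0.66. *Ccl28*, the weakest gene, went to -1.09 with a pseudocount of 1, which shrinks changes of low values by construction, and otherwise stayed at -1.74 or lower. It has no value at an FPKM minimum of 5. *Tmem267* ranged from -0.87 to -0.64, *Paip1* from -0.03 to 0.03, *Nim1k* from -0.09 to -0.02 and 4833420G17Rik from 0.22 to 0.32, all within the spread. Each library left out in turn gave -0.77 to -0.70 for *Nnt*, -1.92 to -1.74 for *Ccl28* and -0.87 to -0.64 for *Tmem267*.

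The counts over all loci in limma were less stable, and the cause was not tested. Against 12 higher and 23 lower, they were 6 and 9 without an FPKM minimum, 7 and 14 without the trend, and 29 and 36 with the replicate block. With a minimum of 5 there were 20 higher and 34 lower loci, and the substrain list had 2 genes at the adjusted threshold instead of 1. Leaving out single libraries gave 4 to 8 higher and 10 to 14 lower loci, fewer in each case, with fewer samples. Same-numbered libraries of the genotypes deviated together with correlations of 0.243, 0.058 and 0.08. Differently numbered ones that included replicate 1 had -0.152 to -0.119, and the rest had 0.066 and 0.078. Replicate 1 thus deviated in part alike in both genotypes, while the other replicates could not be matched. The numbers were not taken as pairs in the main model. With the replicate block, the standard error of *Tmem267* was 0.075 instead of 0.12. No other locus within 1 Mb and no gene of the other 4 lists reached the adjusted threshold under any alternative, nor did windows of 3 and 10 Mb add one. *Gabra2* kept its call in all 13.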
